A study of Rattus norvegicus with 83 samples.

Results

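The vehicle libraries of a rat developmental study were compared between their labelled stages, pup day 16 (PD16) and gestational day 21 (GD21). They were chosen by their labels alone, as all libraries whose dams received corn oil, and they number 16 of the 83 libraries of the series, 10 labelled PD16 and 6 labelled GD21. All came from offspring of Sprague-Dawley dams that were given corn oil, the vehicle of the dosed groups, once daily by gavage from gestational day 7. The labels' treatment protocol gives pup day 22 as the end of dosing and the series' design text gives pup day 16; the expected day of birth, gestational day 23, was counted as pup day 1. The tissue label is testis, and RNA with an integrity score above 6.8 was used. The assay was BRB-seq, in which each sample's polyadenylated RNA receives its own barcode at the 3′ end and the barcoded samples are sequenced as a pool. Litters and animals are not identified, so the p-values below measure the spread between these samples.

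The transcripts of these libraries were those of an adrenal gland. The adrenal cortex makes steroid hormones from cholesterol, which StAR carries into mitochondria for cleavage by Cyp11a1, and the medulla makes catecholamines in chromaffin cells. Before and around birth the gland grows by cell division, a cortex that already responds to ACTH matures into its zones, and the blood that fills it changes from embryonic to adult haemoglobin. The 8 cortex markers summed to 13681 to 21004 CPM (a count scaled to its library's total) in the libraries labelled PD16 and to 27959 to 37449 CPM in those labelled GD21. The 8 medulla markers in the table summed to 757 to 986 and 975 to 1441 CPM. The 14 testis markers in the table, among them Amh, Insl3, Ddx4 and Sycp3, summed to 1.93 to 20.3 CPM over the 16 libraries, none passed the filter on low counts, and 4 were at 0 throughout. The tissue label is therefore not borne out by its defining genes. Kidney markers summed to at most 3.85 CPM and lymphocyte markers to at most 6.50 CPM in any library.

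The stage labels were checked with the embryonic globins, which are made by the first red cells of the embryo and are replaced by adult globins during gestation. Their share of all globin counts was 11.6% to 19.4% (median 14.1%) in the libraries labelled PD16 and 0.0891% to 0.242% (median 0.157%) in those labelled GD21. The embryonic share was thus the higher one in the group labelled as the later stage, in 10 of 10 libraries, and the groups did not overlap. The labels were kept, the groups are called by them throughout, and no direction below is read as a change with age. Total counts ran from 409709 to 1052882 (median 627048.5) in the libraries labelled PD16 and from 945689 to 1627114 (median 1097632) in those labelled GD21, so the second group was the deeper. Eif2s3y, a Y-linked gene, was at 53.9 CPM or more in all 16 libraries. Ddx3y, also Y-linked, was at 1.39 CPM or less in all 16, and Xist, Kdm5d and Uty were not in the table. The sex of the animals is therefore not read from these genes. Albumin (Alb), the main secreted protein of liver, reached 200 CPM in 3 of the 6 libraries labelled GD21 (libraries 42, 44 and 62) and in none of the 10 labelled PD16. Fits without the Alb-rich libraries leave out these 3 and the dosed libraries at that level. Skeletal muscle markers summed to 1523 CPM in GD21 library 42 and to 426 CPM in PD16 library 22, the highest of their groups.

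Of 6287 genes tested with edgeR's quasi-likelihood test, 1533 (24.4%) were higher and 1390 (22.1%) lower in the libraries labelled PD16 at a Benjamini-Hochberg adjusted p under 0.05, in all 46.5%. The median log2 fold change, given here and below as PD16-labelled minus GD21-labelled, was 0.04. At least a 2-fold difference was present for 371 of the higher and 589 of the lower genes. All 10 libraries of one group lay beyond all 6 of the other for 692 genes that were higher (11.0%) and 389 that were lower (6.19%). Scaling by library totals alone gave 1941 higher and 1140 lower genes, so that 63.0% of calls were higher in place of 52.4%, and moved the median of all genes to 0.17. A group of genes is described below by how many of its tested members passed this test, against those background shares.

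**Figure D1:**
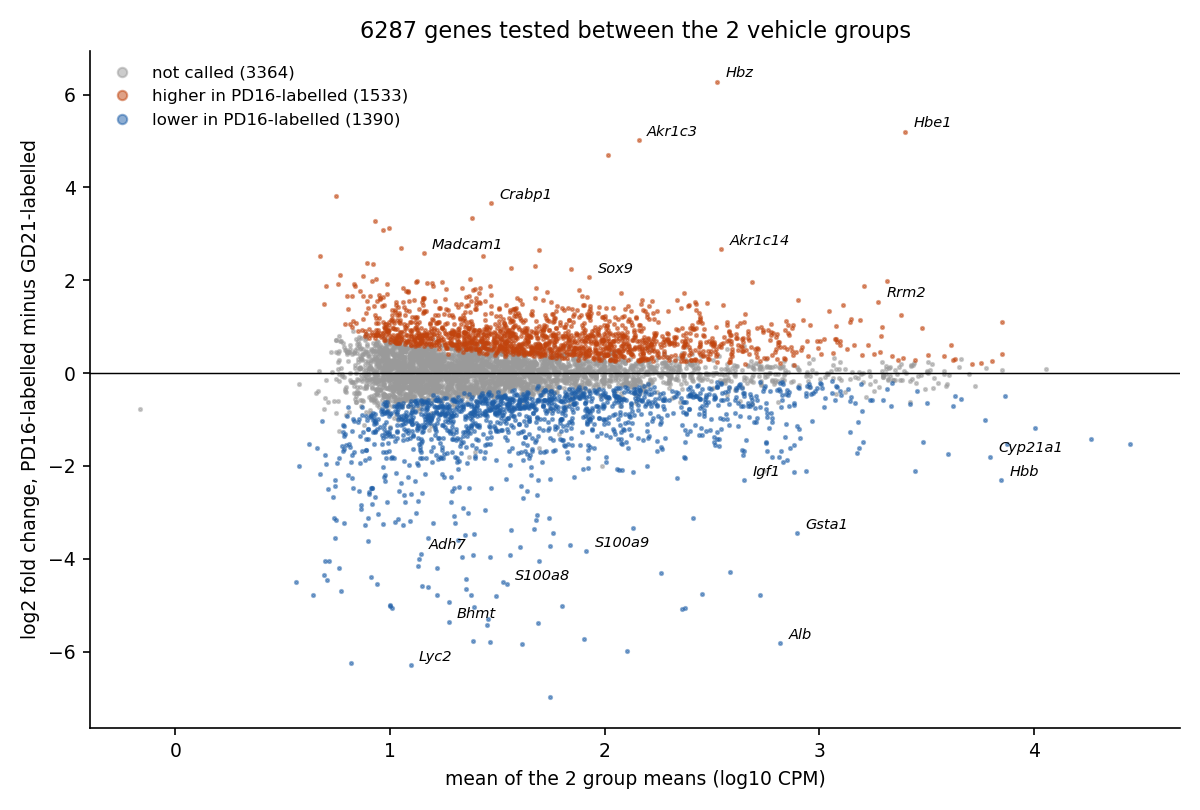
Log2 fold change between the vehicle groups (PD16-labelled minus GD21-labelled, y axis) against the mean of the 2 group means (log10 CPM, x axis) for the 6287 genes tested; each point is a gene, coloured by its call at an adjusted p under 0.05. Of the named genes, Hbz and Hbe1, the embryonic globins, lie at the top, and Lyc2 and Alb are among the lowest.

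Among the named genes, the largest difference upward after the globins, described below, was that of Akr1c3. Akr1c3, an aldo-keto reductase that acts on steroids, ran from 133 to 426 CPM (median 314) in the libraries labelled PD16 and from 1.83 to 19.0 CPM (median 6.82) in those labelled GD21. The lowest PD16-labelled library was above the highest GD21-labelled one, and the log2 fold change was 5.02 ± 0.55 (SE, adjusted p = 4.71e-12). Its relative Akr1c14 was higher by 2.67. Reads of this family can be shared between near-identical copies, so the values of its single members are uncertain. Crabp1, which binds retinoic acid in the cytoplasm, was at 19.2 to 80.7 CPM against 0.905 to 5.50 CPM and higher by 3.67 (adjusted p = 1.74e-14). Midkine (Mdk), a growth factor of embryonic tissues, was higher by 2.24, the neuronal serine protease inhibitor Serpini1 by 2.52, Auts2l1 by 2.26 and the adhesion molecule Madcam1 by 2.59. The histone gene H2bc12 was higher by 2.31, with the same doubt about copies. These genes were picked from those of at least 20 CPM in 1 group whose groups did not overlap. The lack of overlap is thus a condition of the choice and no further result. Symbols that are only identifiers, such as LOC followed by digits, were passed over, here and in the next paragraph.

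Among genes of at least 20 CPM in 1 group whose groups did not overlap, the 12 largest differences downward included 4 neutrophil genes, described below, and 4 genes known from liver. Larger ones occurred among liver genes whose groups overlapped, such as the fibrinogen chain Fga (log2 fold change -6.98). Lyc2, a lysozyme gene, had 1 count over the 10 libraries labelled PD16 and 171 counts over the 6 labelled GD21 (18.6 to 37.0 CPM), so no fold is given. Gucy2f, a guanylyl cyclase known from the retina, was at 0 to 3.93 CPM against 11.6 to 54.1 CPM and lower by 4.58 on the log2 scale. Qrfpr, a peptide hormone receptor, was at 0 to 13.8 CPM against 27.5 to 59.2 CPM (log2 fold change -3.92, adjusted p = 1.49e-13). Adh7, an alcohol dehydrogenase that oxidises retinol, had a log2 fold change of -3.89. The liver genes Bhmt, Asgr1, Pzp and Serpina11 had log2 fold changes of -5.37, -3.96, -3.96 and -3.73. Without the 3 Alb-rich libraries, that of Bhmt was -4.20 and that of Pzp -3.33. In GD21 library 41, with 22.1 CPM of Alb, Asgr1 was at 89.1 CPM and Serpina11 at 91.0 CPM. GD21 library 44, with 5319 CPM of Alb, had 55.1 and 177 CPM of them. In bulk RNA, fewer cells of a type and less RNA per cell cannot be told apart, here or below.

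Of the named genes that were higher in the libraries labelled PD16, the embryonic globins Hbz and Hbe1 had the largest fold changes. Hbz, the embryonic alpha-type chain, ran from 464 to 967 CPM (median 639) in the libraries labelled PD16 and from 4.91 to 12.7 CPM (median 7.14) in those labelled GD21, which is a log2 fold change of 6.28 ± 0.35 (SE, 77.7-fold, adjusted p = 5.16e-25). Hbe1, the embryonic epsilon chain, ran from 3684 to 7277 CPM (median 4638) against 75.2 to 188 CPM (median 107) and was higher by 5.20 ± 0.46 (36.7-fold, adjusted p = 1.85e-15). PD16 libraries 3 and 23 had the most Hbe1, and the lowest PD16-labelled library still had more than any library labelled GD21. Hbg1, a further embryonic beta-type gene whose RefSeq entry also carries Hbe1 as a synonym, was higher by 2.66. The 3 tested genes of this list were all higher, with a median of 5.20. The 6 adult globins were all lower, with a median of -1.63 and no overlap. Hbb, an adult beta chain, ran from 1802 to 3087 CPM (median 2653) against 8338 to 14867 CPM (median 11098), a log2 fold change of -2.31 ± 0.20 (adjusted p = 4.06e-16). Hbb-b1, Hbb-bs and Hba-a1 had log2 fold changes of -2.11, -1.74 and -1.53. Globin copies are nearly identical, so reads may be split between genes of the same type. All globins together took 2.98% to 4.31% of counts in the libraries labelled PD16 and 6.08% to 11.7% in those labelled GD21.

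The promoters of the globins that moved most in each direction are shown as the 250 bases before the start, 5′ to 3′ on the gene's strand, from RefSeq (GRCr8, another build than that of the counts; matched by symbol). Capitals mark matches on either strand to 3 short promoter elements. The first is CCAAT, and the second is CCACACCC, the box recognised by KLF factors. The third, ATAAA, is a form of the box that positions RNA polymerase near the start. The intervals are chr10:15849758-15850007 (minus strand) for Hbz, chr1:167696281-167696530 (minus strand) for Hbe1 and chr1:167663722-167663971 (minus strand) for Hbb.
Hbz: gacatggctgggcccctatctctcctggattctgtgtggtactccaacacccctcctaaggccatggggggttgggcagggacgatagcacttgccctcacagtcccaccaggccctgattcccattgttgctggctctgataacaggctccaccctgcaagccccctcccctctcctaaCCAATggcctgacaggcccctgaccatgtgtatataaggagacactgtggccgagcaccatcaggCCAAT
Hbe1: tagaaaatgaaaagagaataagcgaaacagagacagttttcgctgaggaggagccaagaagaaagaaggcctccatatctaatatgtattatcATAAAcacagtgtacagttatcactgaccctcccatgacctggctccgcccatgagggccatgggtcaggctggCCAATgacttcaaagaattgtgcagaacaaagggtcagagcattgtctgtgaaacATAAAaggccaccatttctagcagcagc
Hbb: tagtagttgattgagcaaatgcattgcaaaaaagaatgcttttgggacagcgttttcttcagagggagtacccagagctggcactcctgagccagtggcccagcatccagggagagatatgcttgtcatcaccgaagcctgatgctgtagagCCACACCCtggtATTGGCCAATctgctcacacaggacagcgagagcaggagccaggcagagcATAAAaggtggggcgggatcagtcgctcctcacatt
Of the globin promoters in the table, 2 of 2 embryonic and 6 of 6 adult ones held CCAAT, against 34.4% of 24206 promoters of the same length. Hbb alone of these held CCACACCC, which 2.87% of all promoters did. ATAAA was in 1 of 2 embryonic and 6 of 6 adult promoters and in 38.8% of all. Such a match is a description of letters and not evidence of a bound site.

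**Figure D2:**
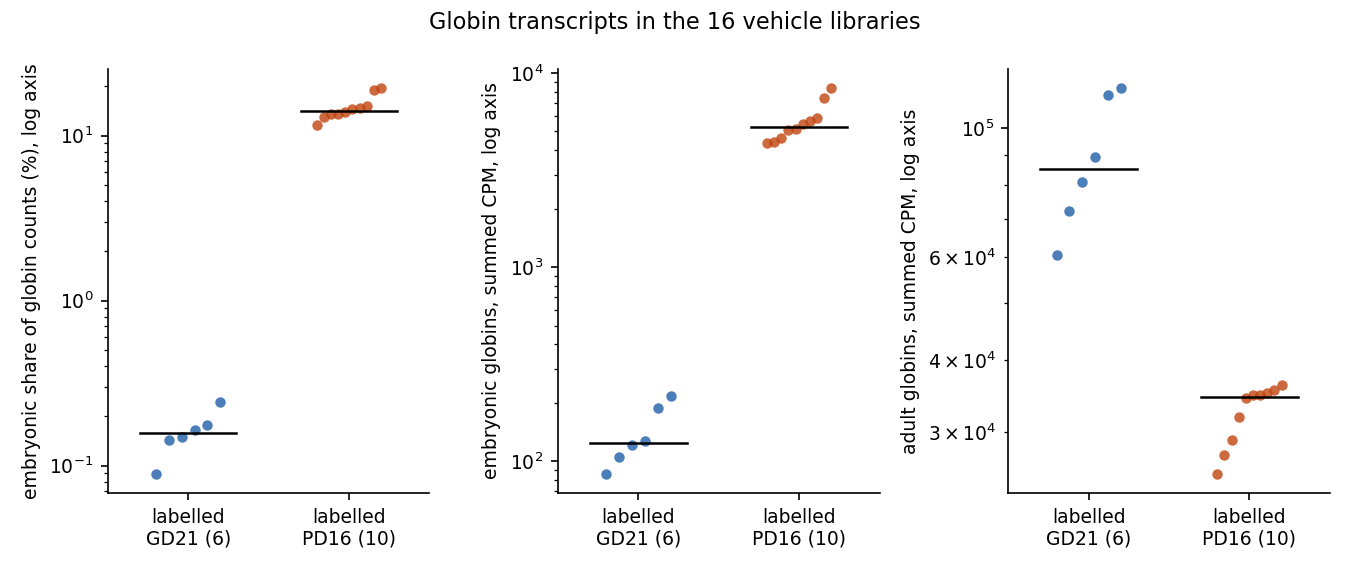
Globin transcripts in each vehicle library (points; bar, median): the embryonic share of globin counts in percent, and the summed CPM of embryonic and of adult globins, all on log axes. Embryonic globins were higher in every library labelled PD16 (11.6% to 19.4% of globin counts) than in any labelled GD21 (0.0891% to 0.242%), and adult globins were lower.

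Other red cell genes were on the side of the adult globins. Of 22 tested genes of red cell maturation and haem synthesis, 16 were lower and 0 higher in the libraries labelled PD16, with a median of -0.92. Alas2, the first enzyme of haem synthesis in red cells, ran from 87.9 to 137 CPM (median 110) against 219 to 498 CPM (median 356), a log2 fold change of -1.82 ± 0.19 (adjusted p = 2.59e-13). The groups did not overlap for Alas2. The carbonic anhydrases Car1 and Car2 had log2 fold changes of -2.18 and -1.80, with overlap between the groups. Hemgn, a nuclear protein of red cell precursors, had a log2 fold change of -1.80. Without the 3 Alb-rich libraries, Car1 moved to -1.18 and Hemgn to -1.04, where its call was lost (adjusted p = 0.0813). AGATAA, the letters recognised by GATA factors, was found in 5 of 18 promoters of this list in the table (27.8%), among them that of Alas2, against 10.0% of all promoters.

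Genes of DNA replication and mitosis were higher in the libraries labelled PD16. Of 29 tested replication and nucleotide supply genes, 27 were higher and 0 lower (median 1.17), and for 18 the groups did not overlap. Mcm6, a subunit of the replicative helicase, ran from 83.6 to 145 CPM (median 121) against 19.9 to 37.9 CPM (median 31.8), a log2 fold change of 1.79 ± 0.15 (adjusted p = 6.04e-17). Every library labelled PD16 had more than any labelled GD21. Gins1, of the same helicase complex, was higher by 1.69 and Cdc6, which loads the helicase, by 1.50. Rrm2, the ribonucleotide reductase subunit that limits deoxynucleotide supply, ran from 980 to 5023 CPM (median 3043) against 584 to 1382 CPM (median 780). It was higher by 1.54 ± 0.28 (adjusted p = 3.89e-06), but its groups overlapped. Rrm2 was not called in the libraries numbered below 57 (1.26, adjusted p = 0.0557) or in those numbered 57 and above (1.92, adjusted p = 0.148). Pcna, the sliding clamp of replication, was higher by 0.73.

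Of 28 tested mitosis genes, 22 were higher and 0 lower (median 0.96), and for 12 the groups did not overlap. Cdc20, an activator of the anaphase-promoting complex, ran from 169 to 288 CPM (median 225) against 61.8 to 78.2 CPM (median 70.5), a log2 fold change of 1.58 ± 0.14 (adjusted p = 2.00e-16). Its groups were well apart. Cyclin B1 (Ccnb1) was higher by 1.47, the checkpoint kinase Bub1b by 1.46 and Cdca8, of the chromosomal passenger complex, by 1.41. Mki67, a widely used marker of dividing cells, was at 32.3 to 82.0 CPM (median 52.7) against 22.6 to 59.9 CPM (median 33.2) and did not pass the test (log2 fold change 0.42, adjusted p = 0.0907). Without the 3 Alb-rich libraries it did (0.71, adjusted p = 0.0223), and with library totals as the only scaling as well (0.54, adjusted p = 0.0332). The topoisomerase Top2a was not called either (0.11, adjusted p = 0.791).

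Since these genes moved together, promoters of 2 replication and 2 mitosis genes are shown in the same form. Capitals mark, on either strand, TTTCCCGC or TTTGGCGC (forms of the E2F site) in Mcm6, chr13:42404353-42404602 (minus strand), and Gins1, chr3:160184670-160184919 (plus strand). In Cdc20, chr5:137255800-137256049 (minus strand), and Cdca8, chr5:142483200-142483449 (minus strand), they mark TTTGAA (the CHR element of cell cycle genes) or CCAAT.
Mcm6: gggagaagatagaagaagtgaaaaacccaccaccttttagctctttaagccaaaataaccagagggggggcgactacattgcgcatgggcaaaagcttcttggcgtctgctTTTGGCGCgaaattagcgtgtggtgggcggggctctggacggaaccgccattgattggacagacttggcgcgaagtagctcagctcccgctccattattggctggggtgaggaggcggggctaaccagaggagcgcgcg
Gins1: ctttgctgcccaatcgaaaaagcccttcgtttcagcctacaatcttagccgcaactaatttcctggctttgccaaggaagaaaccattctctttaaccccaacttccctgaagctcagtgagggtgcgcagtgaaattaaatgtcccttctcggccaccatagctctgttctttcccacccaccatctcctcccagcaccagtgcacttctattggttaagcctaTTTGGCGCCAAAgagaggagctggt
Cdc20: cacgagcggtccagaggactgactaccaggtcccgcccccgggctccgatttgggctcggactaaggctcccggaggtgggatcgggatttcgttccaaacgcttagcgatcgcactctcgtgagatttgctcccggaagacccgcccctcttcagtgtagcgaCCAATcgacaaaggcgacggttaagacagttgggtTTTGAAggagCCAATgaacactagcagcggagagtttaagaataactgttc
Cdca8: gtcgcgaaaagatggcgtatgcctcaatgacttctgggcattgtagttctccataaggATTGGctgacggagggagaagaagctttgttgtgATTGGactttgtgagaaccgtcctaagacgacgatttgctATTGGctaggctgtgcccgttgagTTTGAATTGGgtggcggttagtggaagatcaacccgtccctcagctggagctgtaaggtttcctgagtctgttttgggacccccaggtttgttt
The E2F letters were found in 6 of 22 promoters of the replication list in the table (27.3%), against 1.28% of all promoters. In the mitosis list TTTGAA was found in 16 of 27 (59.3%) against 16.1% of all, and CCAAT in 24 of 27 (88.9%) against 34.4%. The lists were drawn up by function and include genes that did not differ between the groups, such as Top2a.

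Genes of cholesterol synthesis were higher in most, not all, of the libraries labelled PD16. Cells make cholesterol from acetyl-CoA through mevalonate and squalene, under the control of SREBP2 (Srebf2), which is active when sterols are low. Of 22 tested genes of the pathway and its regulation, 16 were higher and 1 lower (median 1.06), but for 0 of them were the groups apart. Fdps, which makes farnesyl diphosphate, ran from 374 to 2183 CPM (median 1389) against 290 to 538 CPM (median 349), a log2 fold change of 1.58 ± 0.29 (adjusted p = 5.26e-06). The highest GD21-labelled library overlapped with the lowest PD16-labelled ones. Tm7sf2, Lss and Msmo1, which act between squalene and cholesterol, were higher by 1.82, 1.62 and 1.48. Hmgcs1, at the start of the pathway, was higher by 1.36 and Srebf2 by 0.72. Dhcr7, the last step, was the exception, at 59.8 to 209 CPM against 137 to 159 CPM (log2 fold change -0.58, adjusted p = 0.00327). With the libraries numbered below 57 and those numbered 57 and above fitted apart, 6 and 4 of the 22 genes were called higher, with medians of 1.09 and 0.84. Fdps (1.45 and 1.76) and Hmgcs1 (1.36 and 1.29) were called in neither.

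The sum of the list's genes separated 3 of the 10 libraries labelled PD16. Libraries 22, 24 and 60 had 1630, 1750 and 1749 CPM, within the range of the libraries labelled GD21 (1513 to 2331 CPM). The other 7 had 3874 to 7186 CPM. For 18 of the 22 tested genes, among them Sqle, which makes squalene epoxide, these 3 libraries were the lowest of the 10, which was so for 167 of all 6287 genes (2.66%). They were also the 3 lowest for Scarb1, the receptor that takes up lipoprotein cholesterol, for Star, for Rrm2 and for the heat shock genes Hspa8, Hsph1 and Hspa5. In the replication list they summed to 3927 to 4085 CPM against 5318 to 8226 CPM in the other 7. Of its 29 tested genes they were the lowest for Rrm2 only, at 980, 1023 and 1377 CPM against 2573 to 5023 CPM. That share, 3.45%, is near the 2.66% of all genes, so the low sum is not read as a result about replication genes. Summed mitosis genes overlapped, with 2525 to 2990 CPM in the 3 libraries and 2454 to 3205 CPM in the other 7. The 3 libraries were the highest in summed neutrophil genes (60.8 to 79.3 CPM against 17.7 to 57.9 CPM). They were singled out by these values, so no test was made between them and the rest. Their totals, 1052882, 681044 and 461394 counts, spanned the range of the group, and their part in the stage difference is given by a fit without them. That fit gave 1369 higher and 1384 lower genes.

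**Figure D3:**
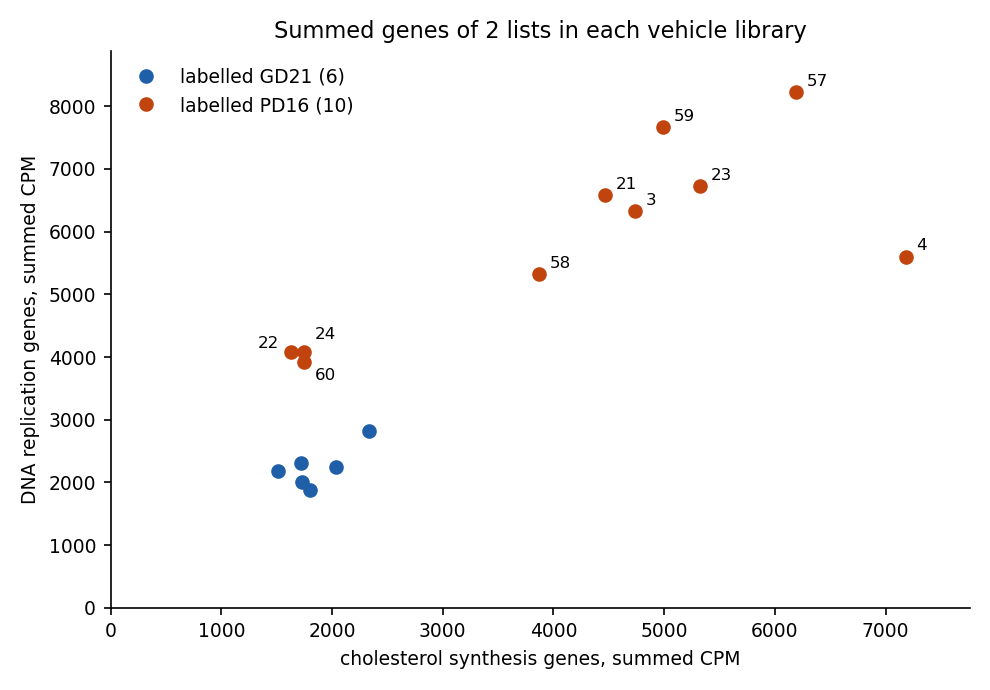
Summed CPM of the cholesterol synthesis list (x axis) and of the DNA replication list (y axis) in each vehicle library, with library numbers for those labelled PD16. Libraries 22, 24 and 60 lie at 1630 to 1750 CPM of cholesterol synthesis genes, beside the libraries labelled GD21, and above them in replication genes. Of 29 tested replication genes, these libraries were the lowest of their group for Rrm2 only.

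The promoter of Fdps, chr2:176804817-176805066 (minus strand), is shown with CCAAT in capitals on either strand, letters bound by NF-Y, which acts with SREBP2 at such genes.
Fdps: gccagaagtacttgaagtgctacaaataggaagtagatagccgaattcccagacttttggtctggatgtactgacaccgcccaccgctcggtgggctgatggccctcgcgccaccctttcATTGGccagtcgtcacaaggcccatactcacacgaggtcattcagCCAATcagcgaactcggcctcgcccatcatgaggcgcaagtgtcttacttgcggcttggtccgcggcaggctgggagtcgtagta
CCAAT was found in 14 of the 18 promoters of the list in the table (77.8%), against 34.4% of all.

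The steps that take up cholesterol and turn it into corticosteroids were lower in the libraries labelled PD16. Of 10 tested genes of import and side-chain cleavage, 7 were lower and 0 higher (median -1.33), with no overlap for 6. Star ran from 225 to 482 CPM (median 370) against 907 to 1081 CPM (median 981), a log2 fold change of -1.67 ± 0.19 (3.18-fold, adjusted p = 8.17e-12). The highest library labelled PD16 had less than the lowest labelled GD21. Cyp11a1, the side-chain cleavage enzyme, ran from 5636 to 8946 CPM (median 6029) against 10858 to 16367 CPM (median 13283), a log2 fold change of -1.18 ± 0.17 (adjusted p = 2.20e-08). Its redox partners Fdx1 and Fdxr had log2 fold changes of -1.61 and -1.49, and Tspo, a protein of the outer mitochondrial membrane, -1.61. Scarb1 ran from 457 to 2771 CPM (median 2034) against 3441 to 5241 CPM (median 4482) with a log2 fold change of -1.49 (adjusted p = 5.29e-05).

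After pregnenolone the picture was uneven. Of 8 tested corticosteroid-forming enzymes, 5 were lower and 0 higher (median -1.18). Cyp21a1, the steroid 21-hydroxylase, ran from 2247 to 3533 CPM (median 3088) against 8136 to 10974 CPM (median 9405), a log2 fold change of -1.80 ± 0.21 (3.49-fold, adjusted p = 3.28e-11). Its groups were far apart. Cyb5a, an electron donor, had a log2 fold change of -1.03 and Hsd3b3, a 3-beta-hydroxysteroid dehydrogenase with near-identical relatives, of -0.58. The call of Hsd3b3 was lost without the Alb-rich libraries (-0.49, adjusted p = 0.0607). Cyp11b1, which makes corticosterone, was at 3324 to 6654 CPM (median 5375) against 1983 to 7132 CPM (median 4777). It did not pass the test (log2 fold change -0.03 ± 0.29, adjusted p = 0.952). Cyp11b2, the aldosterone synthase of the outer zone, varied within both groups. It was at 1473 CPM in PD16 library 3 and at 49.4 to 115 CPM in the other 9, and at 2804 and 1988 CPM in GD21 libraries 41 and 42 against 93.5 to 199 CPM in the other 4, with no call (log2 fold change -2.11, adjusted p = 0.0894). The libraries numbered 57 and above, without those 3, had a smaller log2 fold change that was called (-0.94, adjusted p = 0.0383).

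Among 12 tested genes of the ACTH receptor and cortex identity, 3 were higher and 3 lower (median 0.29), shares near those of all genes. The lower ones were Mc2r, the ACTH receptor (9.50 to 23.5 CPM against 18.1 to 31.2 CPM, log2 fold change -0.82), its accessory protein Mrap (-0.81) and Akr1b7, a reductase of the inner cortex (-1.02). Inha, the inhibin alpha subunit, was higher by 0.96, at 80.2 to 296 CPM against 77.5 to 130 CPM. It was not called in the libraries numbered below 57 (0.86, adjusted p = 0.0604) or in those numbered 57 and above (1.03, adjusted p = 0.114). Nr0b1 and Gata6, transcription factors of the cortex, did not pass the test (0.30 and 0.30). The promoter of Cyp21a1, chr20:4028141-4028390 (plus strand), is shown with AAGGTCA, a site of the steroidogenic factor SF-1, in capitals.
Cyp21a1: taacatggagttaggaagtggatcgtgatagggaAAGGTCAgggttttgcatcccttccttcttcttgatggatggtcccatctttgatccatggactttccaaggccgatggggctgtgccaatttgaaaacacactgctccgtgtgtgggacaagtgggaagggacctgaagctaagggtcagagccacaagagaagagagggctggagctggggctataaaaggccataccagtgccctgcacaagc
AAGGTCA on either strand was found in 1 of 6 promoters of the corticosteroid list in the table (16.7%), that of Cyp21a1, in 0 of 8 of the import list and in 3.61% of all.

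**Figure D4:**
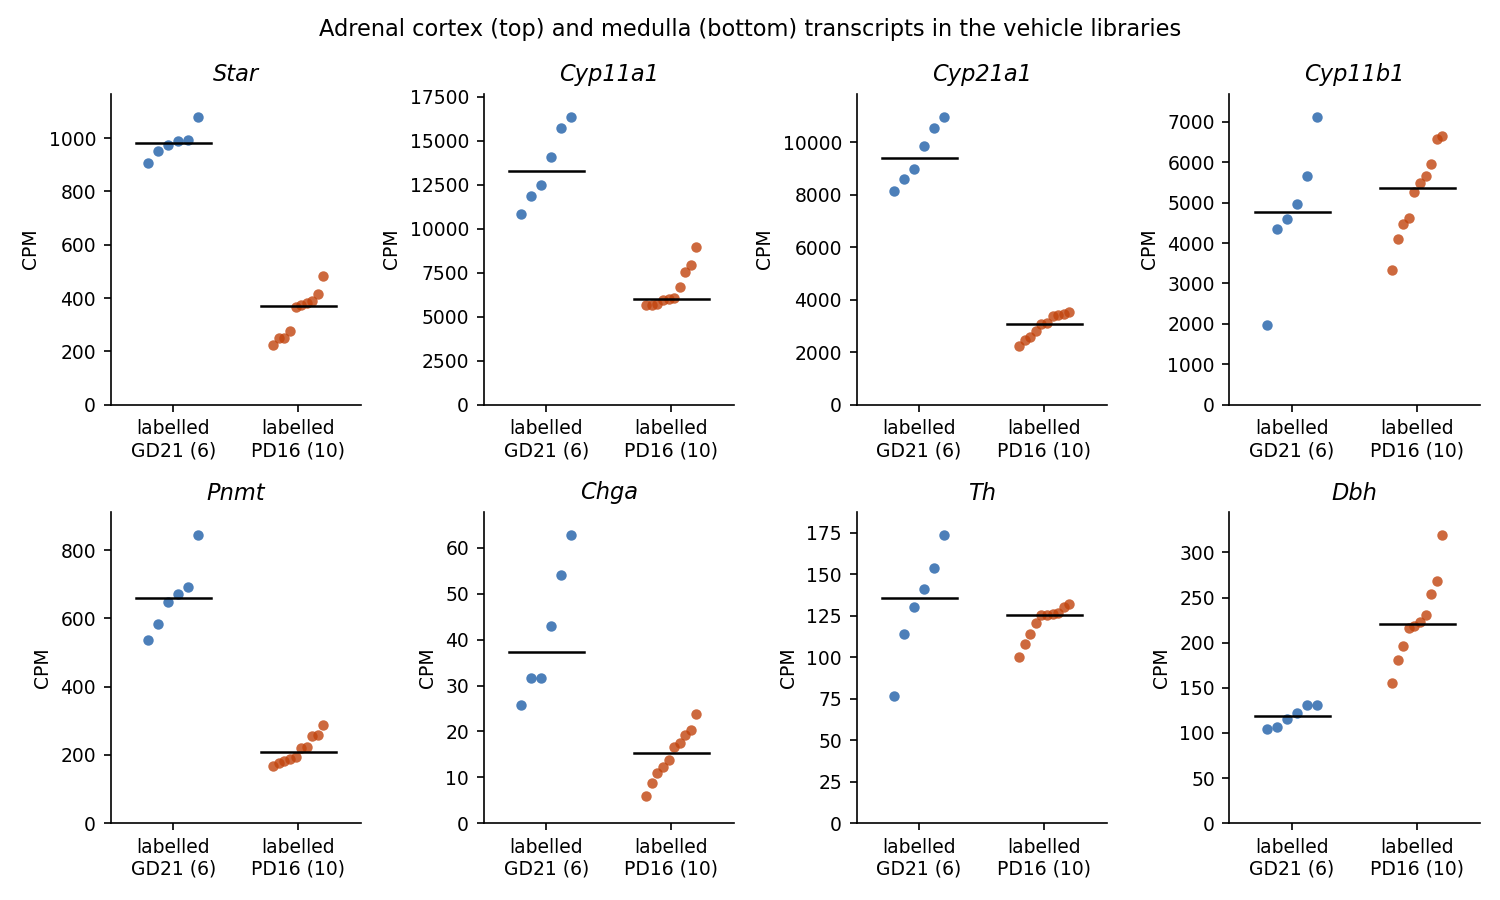
CPM of 4 cortex genes (top) and 4 medulla genes (bottom) in each vehicle library (points; bar, median). Star, Cyp11a1, Cyp21a1, Pnmt and Chga are lower in every library labelled PD16 than in any labelled GD21, Dbh is higher, and Cyp11b1 and Th overlap.

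Of 16 tested medulla genes of catecholamine synthesis and granules, 3 were higher and 4 lower (median -0.21), shares near those of all genes, so the counts say nothing about the list. Th, which starts catecholamine synthesis, was at 100 to 132 CPM (median 126) against 76.6 to 174 CPM (median 136) and was not called (log2 fold change -0.24, adjusted p = 0.344), but it was in thinned counts (-0.35, adjusted p = 0.0451). Dbh, which makes noradrenaline, was higher by 0.81 ± 0.20, at 155 to 319 CPM (median 221) against 104 to 131 CPM (median 119). Pnmt, which turns noradrenaline into adrenaline and needs glucocorticoid for its expression, ran from 167 to 288 CPM (median 208) against 538 to 844 CPM (median 660), a log2 fold change of -1.76 ± 0.18 (adjusted p = 1.09e-13). Neither Dbh nor Pnmt overlapped, and they differed in opposite directions. Chromogranin A (Chga), the core protein of the granules, had a log2 fold change of -1.52. The neuropeptide galanin (Gal) was higher by 1.79, at 23.6 to 52.0 CPM against 3.69 to 22.0 CPM. Gata2, the 1 transcription factor of its list with enough counts to test, was higher by 0.71.

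Of 12 tested neuronal and Schwann cell precursor genes, 7 were higher and 0 lower (median 0.83). Nefm, a neurofilament chain, was at 16.7 to 80.2 CPM (median 39.5) against 2.11 to 22.0 CPM (median 8.52) and higher by 1.84 (adjusted p = 4.79e-06). Gap43, a protein of growing axons, was higher by 1.18, Tubb2b, a tubulin of young neurons, by 1.03 and Map1b by 0.89. The groups overlapped for all 4 of these. GD21 library 61 had 1053 CPM over the whole list, against 423 to 644 CPM in the other 5 of its group. In the 6 libraries numbered 57 and above, which include it, 1 of 11 tested genes of the list was called and the median was -0.18. There Nefm (0.80, adjusted p = 0.268), Gap43 (0.81, adjusted p = 0.354), Map1b (0.21, adjusted p = 0.571) and Tubb2b (-0.03, adjusted p = 0.963) had no call. In the 10 libraries numbered below 57, 8 of 10 were higher (median 1.17). Tubb2b also had no call without PD16 libraries 22, 24 and 60 (0.86, adjusted p = 0.107) or without the libraries with muscle markers (0.99, adjusted p = 0.0589).

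Genes of fetal growth moved in part. Of 14 tested imprinted genes, 6 were higher and 0 lower (median 0.41). Plagl1, a transcription factor of the imprinted network, ran from 406 to 858 CPM (median 672) against 220 to 408 CPM (median 246) and was higher by 1.09 ± 0.18 (adjusted p = 2.79e-07). Only the lowest library labelled PD16 and the highest labelled GD21 crossed. Nnat was higher by 0.86, Grb10, an inhibitor of growth factor receptors, by 0.57, Peg3 by 0.55 and Dlk1, a Notch-like ligand of immature cells, by 0.52. In the libraries numbered 57 and above Nnat (0.47) and Dlk1 (0.01) had no call (adjusted p = 0.389 and 0.980), and the median of the list was -0.04. The call of Peg3 was lost under 12 of the alternatives. Igf2, the main fetal growth factor, was at 139 to 282 CPM (median 168) against 64.3 to 419 CPM (median 145) and was not called (log2 fold change -0.08, adjusted p = 0.855). H19, its neighbour, was not called either (-0.41, adjusted p = 0.395), but was higher by 0.91 without the Alb-rich libraries (adjusted p = 0.0148). In GD21 library 62, which had 1929 CPM of Alb, Igf2 stood at 419 CPM and H19 at 521 CPM, the highest of all 16. Library 44, with 5319 CPM of Alb, had 190 and 257 CPM, and library 42, with 431 CPM of Alb, had 124 and 148 CPM. GD21 libraries 41, 43 and 61 had 64.3 to 162 CPM of Igf2 and 48.0 to 104 CPM of H19. Igf2bp2, which binds the Igf2 transcript, was higher by 0.66.

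Igf1, the growth factor that takes over after birth, ran from 115 to 214 CPM (median 161) against 317 to 1351 CPM (median 674), a log2 fold change of -2.31 ± 0.38 (adjusted p = 6.94e-07). No library labelled PD16 reached the level of any labelled GD21. Of 7 tested genes of the IGF list, 4 were lower and 1 higher (median -0.68). The binding proteins Igfbp6, Igfbp2 and Igfbp7 had log2 fold changes of -2.47, -1.32 and -0.68. Sox9, a transcription factor of progenitor and skeletal cells, ran from 77.8 to 227 CPM (median 129) against 21.5 to 41.2 CPM (median 29.1) and was higher by 2.06 ± 0.25 (adjusted p = 5.40e-11). Jag1, a Notch ligand, was higher by 1.49, also without overlap. The receptor Notch2 had a log2 fold change of -0.78, a call that was lost without the Alb-rich libraries (-0.74, adjusted p = 0.0547) and without PD16 libraries 22, 24 and 60 (-0.71, adjusted p = 0.0694). Crabp2, the second cytoplasmic carrier of retinoic acid, was higher by 1.73.

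Of 27 tested extracellular matrix genes, 8 were lower and 3 higher (median -0.32), fewer calls in all than the 46.5% of all genes. Dermatopontin (Dpt) was at 1.47 to 13.0 CPM against 23.5 to 58.2 CPM (log2 fold change -3.09, adjusted p = 2.35e-10). The microfibril protein Mfap5 had a log2 fold change of -2.70 and elastin (Eln) of -1.27, while the vessel laminin Lama4 was higher by 1.07. Without the Alb-rich libraries the call of Eln was lost (-0.89, adjusted p = 0.0577). In smooth muscle and mesenchyme 3 of 9 were higher and 3 lower. Tagln, a smooth muscle protein, had a log2 fold change of -1.87 without overlap, Myl9 of -0.94 and Des of -0.81, while the mesenchymal receptor Pdgfra was higher by 0.83. The call of Des was lost without the Alb-rich libraries (-0.28, adjusted p = 0.554), without the libraries with muscle markers (-0.67, adjusted p = 0.0788) and without PD16 libraries 22, 24 and 60 (-0.75, adjusted p = 0.0554).

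Of 14 tested endothelial genes, 4 were higher and 3 lower (median 0.25), again near the shares of all genes. Cldn5, a tight junction protein of vessels, was at 22.8 to 50.1 CPM (median 33.9) against 3.44 to 12.8 CPM (median 8.30) and higher by 1.84 ± 0.31 (adjusted p = 4.84e-07). Pecam1, a general endothelial adhesion protein, was higher by 1.04, and the groups were apart for both. Rgcc had a log2 fold change of -1.38, and Gpihbp1, which anchors lipoprotein lipase to capillaries, of -0.97. Without the Alb-rich libraries, Gpihbp1 moved to -0.34 and was not called (adjusted p = 0.398). Among 9 junction genes 4 were higher and 4 lower. The cadherins Cdh11 and Cdh2 were higher by 1.44 and 0.98, while Cgnl1 and F11r, of tight junctions, had log2 fold changes of -1.42 and -0.93.

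Transcripts of resident and circulating immune cells were lower in the libraries labelled PD16. Of 16 tested macrophage genes, 14 were lower and 0 higher (median -1.17), with no overlap for 7. Cd163, the haemoglobin scavenger receptor of tissue macrophages, was at 0 to 5.24 CPM (median 2.61) against 15.4 to 44.9 CPM (median 24.0), a log2 fold change of -3.56 ± 0.39 (adjusted p = 1.97e-13). The complement genes C1qc, C1qb and C1qa had log2 fold changes of -2.47, -1.84 and -1.83. Of 9 tested neutrophil genes, 8 were lower and 0 higher (median -3.60), with no overlap for 6. The alarmins S100a8 and S100a9 had log2 fold changes of -4.55 and -3.84, and S100a8 was at 0 to 5.70 CPM against 33.0 to 102 CPM. Without PD16 libraries 22, 24 and 60, they moved to -5.17 and -4.51. The defensins RatNP-3b and Np4, of the same gene family, had log2 fold changes of -4.05 and -3.93. In the libraries numbered 57 and above neither was called (-3.80 and -4.07, adjusted p = 0.0767 and 0.0530). All 5 tested antigen presentation genes were lower (median -1.49), among them the proteasome subunits Psmb8 (-2.24) and Psmb9 (-0.70) and B2m (-1.49), the light chain of class I molecules. Lymphocyte markers had 42 counts in the 16 libraries, too few for a test.

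Liver transcripts moved with 3 libraries. All 10 tested liver markers were lower in the libraries labelled PD16 (median -4.92), with overlap between the groups for each. They summed to 81.9 to 412 CPM in the libraries labelled PD16 and to 157 to 21574 CPM in those labelled GD21. Alb itself was at 5.55 to 61.9 CPM against 431, 5319 and 1929 CPM in GD21 libraries 42, 44 and 62 and 17.4 to 25.3 CPM in the other 3, a log2 fold change of -5.82 (adjusted p = 0.000727). Without those 3 libraries it was 0.10 (adjusted p = 0.879). Several genes called in other lists are made in liver too. Of 10 tested genes of iron handling, 6 were lower and 0 higher (median -1.26). The iron hormone Hamp and the plasma proteins Hpx and Hp had log2 fold changes of -4.78, -3.24 and -3.05, of which Hamp moved to -4.13 and Hp to -1.38 without those libraries, while Hpx was then too low to test. Ferritin heavy chain (Fth1), which stores iron in all cells, ran from 3598 to 4704 CPM (median 4035) against 9251 to 13013 CPM (median 10507), a log2 fold change of -1.53 ± 0.14 (adjusted p = 2.78e-15). Its groups were well apart, in libraries with and without Alb alike. The metallothioneins Mt2A and Mt1 were the 2 called of 7 tested glucocorticoid-responsive genes, at -2.08 and -1.14, and neither call held without those libraries (-0.23 with adjusted p = 0.666 and -0.33 with adjusted p = 0.393).

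Detoxifying and mitochondrial genes were lower as groups. Of 17 tested peroxide-handling genes, 12 were lower and 3 higher (median -0.72), with no overlap for 8 of the lower ones. The extracellular and mitochondrial superoxide dismutases Sod3 and Sod2 had log2 fold changes of -2.48 and -1.68, and the peroxiredoxins Prdx5 and Prdx3, which act in mitochondria, -1.72 and -1.26. Prdx3 ran from 801 to 939 CPM (median 879) against 1673 to 2216 CPM (median 1883), without overlap. The cytoplasmic Prdx1 was higher by 0.61 and Txnrd1 by 0.64. Catalase (Cat) was at 63.9 to 141 CPM (median 104) against 102 to 165 CPM (median 142) and was lower (log2 fold change -0.55, adjusted p = 0.000555). Of 22 tested genes of glutathione transfer and xenobiotic metabolism, 11 were lower and 1 higher (median -0.45). Gsta1, an alpha-class glutathione transferase whose copies share reads, ran from 86.2 to 202 CPM (median 145) against 1159 to 1755 CPM (median 1390), a log2 fold change of -3.45 ± 0.17 (10.9-fold, adjusted p = 1.23e-28). It was far apart in every library. Cyp1b1, Akr1b8 and Ephx1 had log2 fold changes of -2.60, -1.87 and -1.76.

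Of 75 tested nuclear genes of mitochondrial respiration, 50 were lower and 3 higher, with a median of -0.30, and 16 of the lower ones did not overlap. Sdha, the flavoprotein of complex II, ran from 227 to 358 CPM (median 274) against 506 to 637 CPM (median 543), a log2 fold change of -1.15 ± 0.11 (adjusted p = 1.47e-14). Uqcrc1 and Cox8a, of complexes III and IV, had log2 fold changes of -0.84 and -0.78. Atp5mc1, Ndufa8 and Ndufb10 were the 3 higher ones. Of 78 tested ribosomal protein genes, 11 were higher and 1 was lower, with a median of -0.01. Rpl22l1, a paralog of Rpl22, and Rpl3 were higher by 0.69 and 0.60 and Rpl27 by 0.36. The call of Rpl27 was lost without the Alb-rich libraries (0.32, adjusted p = 0.0694).

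Of 11 tested immediate early and heat shock genes, 5 were higher and 3 lower (median -0.08). Jund was higher by 0.76, while Jun, Ier2 and the small heat shock protein Hspb1 had log2 fold changes of -0.73, -0.71 and -1.06. In the libraries numbered below 57, Jund, Jun and Hspb1 were not called (adjusted p = 0.0751, 0.0648 and 0.204). In those numbered 57 and above, Hspb1 and Ier2 were not called (adjusted p = 0.0542 and 0.470). The call of Ier2 was also lost with library totals only and in the legacy fit (adjusted p = 0.0639 and 0.0551). Thyroid hormone genes were too low to say much, with 2 of 13 tested. Cpt1a, the carnitine transferase of mitochondrial fat oxidation, was lower (-0.65, adjusted p = 0.0299), a call lost without the Alb-rich libraries (-0.67, adjusted p = 0.0852) and without those with muscle markers (-0.58, adjusted p = 0.0770). Klf9, which thyroid hormone induces, was at 0 to 6.94 CPM against 6.03 to 19.1 CPM, and the receptor Thra at 4.75 to 26.2 CPM against 6.89 to 13.7 CPM, both below the filter. Of 4 tested circadian clock genes 1 was lower, Arntl, at 7.32 to 19.2 CPM against 11.6 to 22.6 CPM (log2 fold change -0.57, adjusted p = 0.0471).

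**Figure D5:**
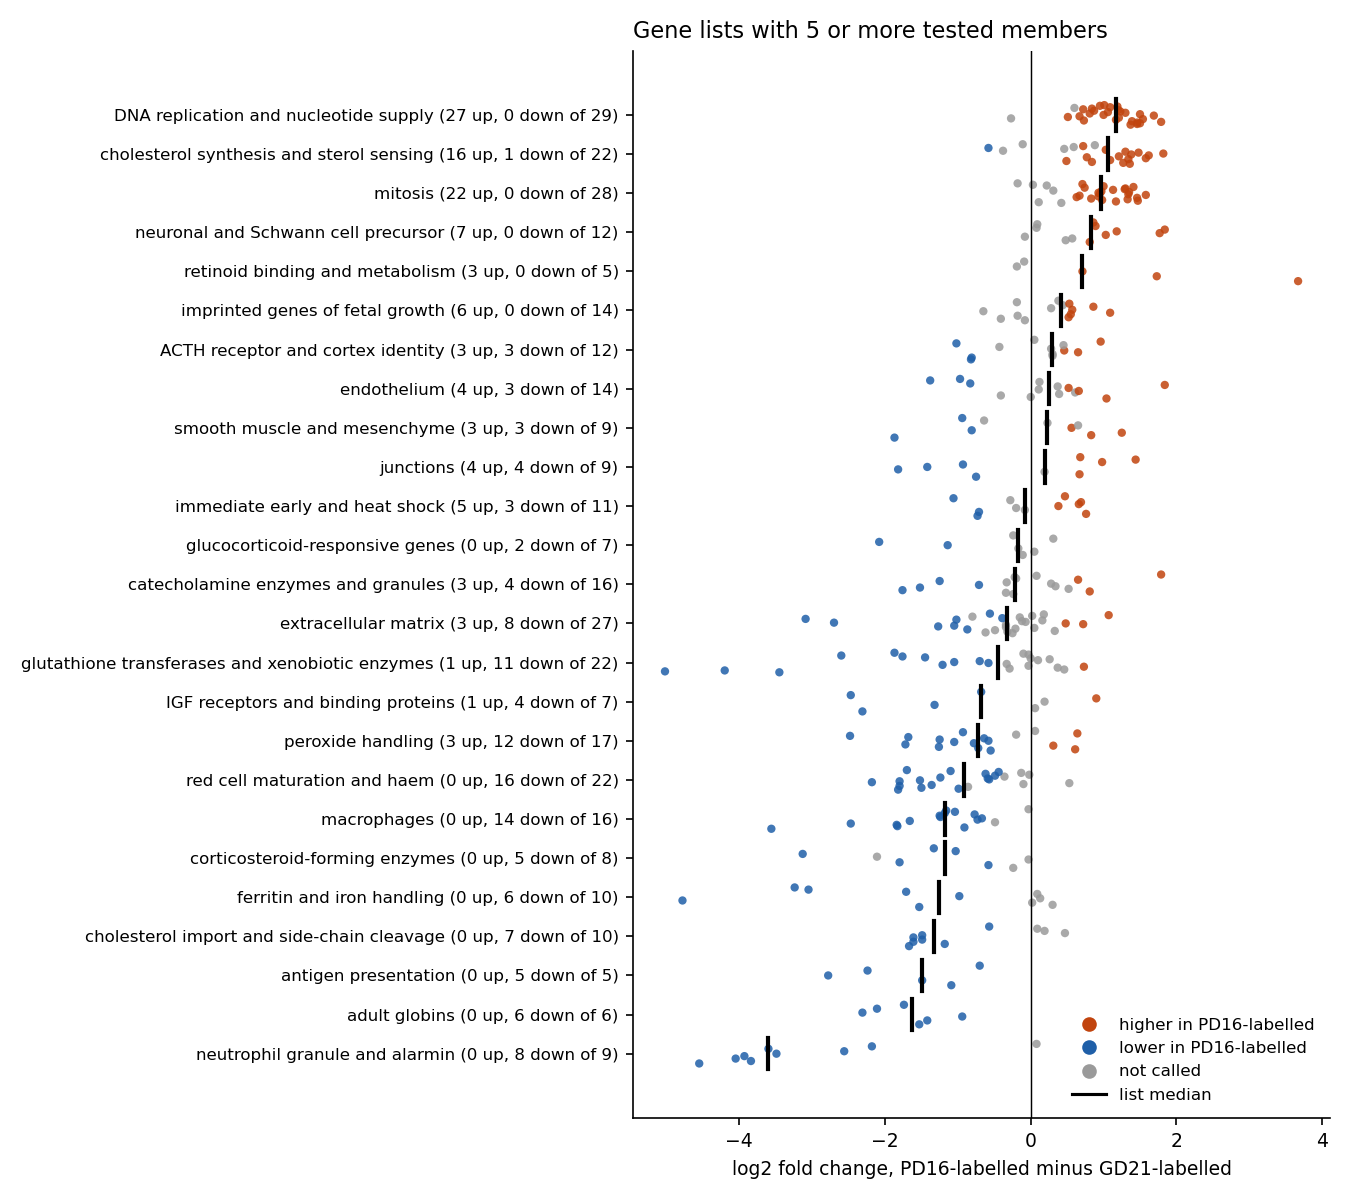
Log2 fold change (PD16-labelled minus GD21-labelled, x axis) of every tested member of gene lists with 5 or more tested members (points, coloured by call; bar, list median), ordered by median. Marker lists, ribosomal proteins and nuclear genes of mitochondrial respiration are not drawn. DNA replication genes (27 of 29 higher) are at the top and neutrophil genes (8 of 9 lower) at the bottom.

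The difference between labelled stages was also compared with that in the dosed libraries for 8 genes, by an interaction term in the same fit. The dosed groups received methimazole at 8 or 16 mg/kg per day or amitrole at 25 or 50 mg/kg per day. At each stage, the mean of both dose groups of a compound was used. Methimazole and amitrole block thyroid peroxidase. Each comparison uses the same vehicle libraries, so the comparisons are not independent of each other. The interaction was called for 346 of 6287 genes (5.50%) with methimazole and for 2388 (38.0%) with amitrole. Hbe1 had a stage difference of 5.20 in vehicle libraries, 5.60 in methimazole libraries (interaction 0.41, adjusted p = 0.932) and -1.0 in amitrole libraries (interaction -6.20 ± 0.52, adjusted p = 7.47e-17). Hbz followed with 6.28, 7.05 and -0.53. The embryonic globins thus separated the labelled stages in vehicle and methimazole libraries in the same direction. Their estimated stage differences in amitrole libraries were of the opposite sign and smaller. No p-value is given for those amitrole differences themselves, so their sign rests on the estimates alone. Star had stage differences of -1.67, -1.38 and -0.28, Cyp21a1 of -1.80, -1.64 and 0.01, and Pnmt of -1.76, -1.86 and -0.16. The interaction of each of these 3 with amitrole was called (1.39, 1.82 and 1.60, adjusted p = 6.22e-07, 1.54e-08 and 2.49e-09), and that with methimazole was not (adjusted p of 0.845 to 0.991). Sox9 differed in both, with 2.06 in vehicle, -1.19 in methimazole and -2.82 in amitrole libraries (interactions -3.26 and -4.88, adjusted p = 3.31e-13 and 4.66e-21). Igf2 and Mki67 had no called interaction with either compound.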

How the data were processed

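RNA of 83 libraries was measured by BRB-seq, per the labels' protocols. The submitters' processing notes name BWA 0.7.4.4 and the genome build rn6. The authors deposited 1 table of raw, unnormalized counts, per the labels, with a row for each gene symbol. How reads were counted (tool, gene models, strand, molecular identifiers) is not given in the sources used here, so overlapping and antisense genes cannot be told apart. Of 17483 symbols, 15578 matched RefSeq (GRCr8) names and 1556 more its synonyms. That table was used for names and promoter sequences only.

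The analysis used edgeR 4.0.16 and limma 3.58.1 under R 4.3.3. Genes were kept by filterByExpr (minimum count 10), scaled with TMM factors and fitted over all 83 libraries of 10 groups, and the contrast of the vehicle groups was tested with robust quasi-likelihood F tests (Benjamini-Hochberg over 6287 genes, called under 0.05). CPM are counts over library totals, with no prior count. At the totals given, a few CPM rest on single counts. The test was tested on simulated counts with 200 genes changed, where 5854 genes passed the filter. It found 45.3%, 86.4% and 98.5% of genes changed 1.5-, 2- and 3-fold, with 4.43% false calls. Group differences in globin or liver content were not simulated, and far more genes were called here, so that share need not hold for these data. Libraries of a group were compared over 60 pairs, and the lowest chi-square per degree of freedom, 1.734, was above sampling noise. No column was left out.

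The comparison, the 33 gene lists, 9 marker lists and the naming rule were chosen with earlier results of these data known. Named were the 12 called genes with the largest difference in each direction, without overlap and with at least 20 CPM in a group, up to 4 called members per list of at least 20 CPM, and a panel of 24 genes. Other genes named were picked after their values were seen, as were libraries 22, 24 and 60. Alternatives were DESeq2 1.42.0 (Wald test, or its size factors in edgeR), library totals only, edgeR's legacy fit, all genes unfiltered or those above a mean of 10 CPM, vehicle libraries only, the library number series as covariate or split at 57, thinned counts, no globins, and fits without the Alb-rich libraries (at least 200 CPM), without the lowest total of each stage and, added after seeing the data, without PD16 libraries 22, 24 and 60 or without those with muscle markers above 400 CPM. Results for a few genes named by the rule are not reported here.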

Additional observations from a re-analysis of the deposited data

Results flagged for a closer look

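In 286 sets of library values, each of a named gene in 1 group, the highest or lowest library was set against the spread of the others by Dixon's ratio, which chance passes in about 1 of 20 sets. It was passed in 24.

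Among the libraries labelled GD21, library 44, with the most Alb (5319 CPM, next 1929), was also far above the rest in Lyc2 (37.0 CPM), Bhmt (115), Fdps (538), Mt2A (653) and Mt1 (2650). Library 62 stood apart in Igf2 (419 CPM, next 190) and Dlk1 (205). Library 61 stood apart in Plagl1 (408 CPM), C1qc (78.0) and Srebf2 (150), library 43 in Tspo (1323), library 41 in Ier2 (30.7), and library 42 was the lowest in Cdh2 (7.40 CPM, next 14.5).

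Among the libraries labelled PD16, library 3 had 1473 CPM of the aldosterone synthase gene Cyp11b2, where the next had 115. Library 4 stood apart in Igfbp2 (213 CPM), Lama4 (90.7), H19 (232) and Thra (26.2). Library 21 did so in Mdk (175 CPM), library 24 in Car2 (86.6), library 58 in Notch2 (31.9), library 60 in Dpt (13.0) and library 23 in Lyc2, where its 1.35 CPM is the single count of the group.

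The difference between labelled stages differed between amitrole and vehicle libraries, by the interaction test, for Hbe1 (-6.20 on the log2 scale), Hbz (-6.81), Star (1.39), Cyp21a1 (1.82), Pnmt (1.60) and Sox9 (-4.88). Between methimazole and vehicle libraries it did so for Sox9 (-3.26).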

How the results depend on the processing

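Of 140 named genes tested, 92 kept their direction and their side of the threshold under all 16 alternatives in which they were tested. The counts of higher and lower genes stayed within 1.5 times their main values, except for 959 higher genes in counts thinned to the lowest total (3926 genes tested) and 640 higher and 767 lower genes in the 6 libraries numbered 57 and above, both with fewer data. In those 6 libraries 30 named genes lost their call with the same direction, and 3 more lost it with a change of sign. The 10 libraries numbered below 57 gave 1044 higher and 1078 lower genes. In the libraries numbered 57 and above, Tubb2b (-0.03), Peg3 (-0.36) and Cpt1a (0.33) changed sign without a call; the cause was not tested. Without the Alb-rich libraries, of vehicle and dosed groups, Alb (0.10) and H19 (0.91) changed sign, and the amitrole interaction of Igf2 passed the threshold (-1.21, adjusted p = 0.00790). As a share of all counts, embryonic globins were on average 0.564% in the libraries labelled PD16 and 0.0141% in those labelled GD21. No paired analysis was possible because the vehicle groups share no library number. The smaller totals of the libraries labelled PD16 limit genes of a few CPM, and stage, litter and any preparation batch that follows the library numbers cannot be told apart.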

Other observations

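The 3 tested of 6 genes listed as adipose markers were lower in the libraries labelled PD16. The other 3, which define adipocytes, were nearly absent from both groups: Plin1 was at 0 in all 16 libraries, Adipoq in 15 and Ucp1 in 14. Cidea, a lipid droplet protein of brown fat, was at 0 to 7.87 CPM (median 4.10) against 12.7 to 34.4 CPM (median 25.5), a log2 fold change of -2.75 (adjusted p = 7.93e-10). Adipsin (Cfd) and Fabp4, a fatty acid carrier, had log2 fold changes of -2.61 and -1.69, and no library of one group reached the range of the other in these 3 genes. Hsd11b2, which inactivates corticosterone, was at 0 to 6.98 CPM (median 0.734) against 5.43 to 24.5 CPM (median 13.8) with a log2 fold change of -3.13 (adjusted p = 7.66e-09).

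PD16 libraries 22, 24 and 60, singled out by the lowest cholesterol synthesis genes of their group, were its 3 highest in the summed genes of 7 of 33 lists. They were its 3 lowest in 4, among them the cholesterol synthesis list itself and the replication list. Of 29 tested replication genes, they were the lowest for Rrm2 only. The 7 included peroxide handling (9735 to 10204 CPM against 8813 to 9530 CPM in the other 7 libraries) and nuclear genes of mitochondrial respiration (51816 to 54504 CPM against 49475 to 51441 CPM). Of the tested members, the 3 libraries were the highest for 0 of 17 and 2 of 75, against 144 of all 6287 genes. These high sums are thus not read as results about either list. The 3 libraries had 827 to 986 CPM of summed adrenal medulla markers, against 757 to 979 CPM in the others. Their liver markers summed to 113 to 189 CPM, against 81.9 to 412 CPM. Both lay within the range of the others or nearly so.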
